A study of Mus musculus with 6 samples.

Results

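DNA repair and damage checkpoint genes encode the proteins that find broken or damaged DNA, halt the cell cycle and mend the lesion. The group described here holds 40 genes that were chosen by symbol, and all 40 of them were measured, out of 22311 measured genes. They comprise 13 genes of homologous recombination, 8 of the checkpoint, 8 of the Fanconi pathway, 2 of mismatch repair, 5 of end joining and 4 of single-strand break and excision repair. For each gene the probe set (the set of array probes that reads its RNA) with the highest mean was used, out of 45 probe sets for the 40 genes.

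Recombination copies an intact sister sequence into a broken end and is used after DNA has been replicated, whereas end joining ligates the ends directly at any time in the cycle. The Fanconi pathway unhooks crosslinks between DNA strands, and mismatch repair corrects errors of the replication fork. The kinases Atm and Atr sense breaks and stalled forks and signal through Chek2 and Chek1, partly by way of p53. Many recombination and Fanconi genes are transcribed mostly in S and G2 phase, so their RNA level in a culture follows, in part, the share of dividing cells.

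Expression was measured on 6 Affymetrix arrays, 1 per culture, of mesenchymal stromal cells from mouse bone marrow, the adherent stromal cells of the marrow. Ploidy is the difference between the groups, with 3 tetraploid and 3 diploid samples, and the labels give no treatment, strain, genotype or age. The tetraploid group joined 1 primary culture (I), 1 cell line (II) and 1 clone in which tetraploidy had been induced artificially (III), by a procedure that the labels do not give. The diploid group joined 1 clone (I) with 2 primary cultures (II and III). A clone descends from a single founder cell. Whether separate animals gave the cultures is not stated in the labels, so p-values measure only the spread between these cultures. The values are log2 expression after RMA (background correction, normalisation across arrays and summary per probe set).

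Diploid III and tetraploid II stood apart from the other arrays. Diploid III had an interquartile range of 2.75 against 3.16 to 3.24 on the other arrays, and of 10 endothelial markers 3 lay above the array median there and 0 on any other array. Those 10 markers averaged 5.12 in diploid III, 3.71 and 3.80 in the other diploid samples and 3.74 to 3.83 in the tetraploid samples. Cdh5, the cadherin of endothelial junctions, was at 11.03 in diploid III against 3.70 to 3.79 elsewhere. Flt1 and Esam were at 7.32 and 4.81 in diploid III, where the array median was 4.78. The other endothelial markers lay below that median. Pecam1, Kdr, Tek and Tie1 were at 4.18, 3.63, 3.63 and 3.82, and Emcn, Vwf and Cldn5 at 4.48, 4.0 and 4.28. Tetraploid II had 3 of 9 myeloid markers above its median, against 1 or 2 on the other arrays, with a list mean of 4.70 against 3.92 to 4.45, while Ptprc, the pan-leukocyte surface protein, was at 3.79. Of 6 lymphoid and 5 erythroid markers, 0 lay above the median of any array. Of 10 stromal markers 7 to 10 lay above the array median, with 7 in tetraploid II, where the surface markers Thy1, Eng and Nt5e were at 3.96, 3.80 and 4.14 and Pdgfra, Col1a1 and Col1a2 were at 10.63, 13.01 and 12.72, their highest values on any array. Nt5e was also at 3.90 in tetraploid I and 3.95 in diploid III, and Thy1 at 4.35 in diploid III. Fewer cells of a type and less RNA per cell cannot be told apart in such samples.

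Some of the 40 genes had weak signals. There were 29 above the median of every array, 9 above it on some arrays, and 2, Palb2 and Clspn, above it on none. A compressed difference is possible for a gene near the lower end of the scale, where the lower quartiles of the arrays were 3.82 to 4.02.

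The promoters of these genes were searched for motifs of cell cycle genes. A window from 250 bases before to 50 bases after the start site was given by RefSeq (GRCm38.p6) for 33 of the 40 genes. The search covered both strands for the E2F site (TTTCCCGC, TTTGGCGC, TTTCGCGC or TTTGCCGC), to which the E2F factors of S phase bind, for the CHR element (TTTGAA or TTCGAA), which is known from genes of late cell cycle, and for CCAAT. An E2F site was found in 9 of the 33 windows (27.3%), against 3.03% of the 16115 windows of all measured genes. It was found in 9 of 16 windows of replication genes (56.2%), in 1 of 17 of mitosis genes (5.88%) and in 3 of 38 of related repair genes (7.89%). A CHR element was found in 2 of the 33 windows (6.06%), against 17.1% of all windows and 70.6% of the mitosis windows. CCAAT was found in 20 of the 33 (60.6%), against 38.7% of all windows. The windows were not matched for base composition, and their median GC content was 59.7% for the repair genes and 57.3% for all genes.

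The 9 genes with an E2F site were Brca2, Bard1, Chek2, Topbp1, Clspn, Mdc1, Fancg, Msh6 and Xrcc6. Windows of 4 genes are shown because they hold an E2F site and have the smallest unadjusted p of the ploidy test among the genes that hold an E2F site or CHR element. Clspn encodes claspin, which brings Chek1 to Atr, and its window is chr4:126556730-126557029 (plus strand). Mdc1 encodes the scaffold that binds marked chromatin beside a break (chr17:35841248-35841547 (plus strand)), Brca2 the loader of the recombinase (chr5:150522371-150522670 (plus strand)) and Bard1 the partner of Brca1 (chr1:71102923-71103222 (minus strand)). Each runs 5′ to 3′ along the gene's strand. Capitals mark matches to the E2F, CHR and CCAAT motifs, which do not overlap in these windows.
Clspn: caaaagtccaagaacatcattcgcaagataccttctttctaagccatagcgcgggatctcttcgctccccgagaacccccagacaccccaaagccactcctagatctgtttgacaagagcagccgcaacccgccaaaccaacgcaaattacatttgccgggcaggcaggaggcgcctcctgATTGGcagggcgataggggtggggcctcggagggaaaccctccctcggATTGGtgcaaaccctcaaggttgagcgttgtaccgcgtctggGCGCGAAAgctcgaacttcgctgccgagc
Mdc1: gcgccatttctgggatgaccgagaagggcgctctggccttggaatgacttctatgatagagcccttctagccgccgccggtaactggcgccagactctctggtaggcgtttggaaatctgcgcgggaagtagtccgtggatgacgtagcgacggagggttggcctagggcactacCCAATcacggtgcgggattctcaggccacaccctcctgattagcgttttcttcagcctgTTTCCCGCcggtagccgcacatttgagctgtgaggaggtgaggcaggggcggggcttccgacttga
Brca2: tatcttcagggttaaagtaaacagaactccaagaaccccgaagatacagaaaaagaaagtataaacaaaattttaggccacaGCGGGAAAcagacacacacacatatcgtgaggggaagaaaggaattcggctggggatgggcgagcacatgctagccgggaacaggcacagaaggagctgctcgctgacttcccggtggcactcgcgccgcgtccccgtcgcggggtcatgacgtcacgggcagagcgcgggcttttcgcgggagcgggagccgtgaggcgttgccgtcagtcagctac
Bard1: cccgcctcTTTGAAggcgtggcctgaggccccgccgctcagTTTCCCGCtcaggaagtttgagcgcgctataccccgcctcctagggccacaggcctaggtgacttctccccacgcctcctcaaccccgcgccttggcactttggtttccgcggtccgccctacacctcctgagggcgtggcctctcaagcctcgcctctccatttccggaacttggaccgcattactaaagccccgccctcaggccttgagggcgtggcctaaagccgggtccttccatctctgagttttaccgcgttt

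Counted from the 5′ end of the window, the E2F match lies at bases 272 to 279 in Clspn, 235 to 242 in Mdc1, 83 to 90 in Brca2 and 42 to 49 in Bard1. The matches in Clspn and Brca2 are on the reverse strand. Of the 9 genes with the site, 7 had the lower mean in tetraploid samples (against 60.9% of all genes). Their median log2 difference was -0.11, with a range from -0.30 to 0.06, and 0 had an unadjusted p under 0.05. Of the 24 genes with a window and no site, 11 had a lower mean, with a median of 0.0 and a range from -0.99 to 0.36. An unadjusted p under 0.05 was reached by 4 of these 24. Over all genes 2.14% were lower and 2.95% higher at that p. No window was given for Fancd2, Rad54b, Rbbp8, Exo1, Rad50, Nbn and Prkdc, so genes with some of the most negative differences were not searched.

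**Figure D1:**
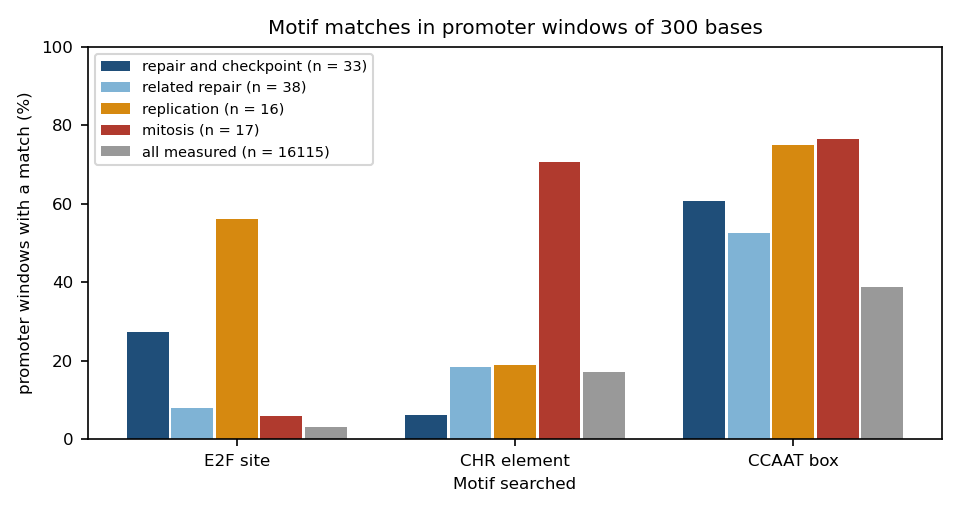
Share of promoter windows (%) that hold at least 1 match to each motif, on either strand, for 5 groups of genes with the number of windows in the key. The E2F bar of the repair and checkpoint genes reaches 27.3% and that of all measured genes 3.03%, and the CHR bar is tallest for mitosis genes at 70.6%.

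The main comparison asked whether the repair and checkpoint genes differ with ploidy. Taken over the 40 genes there was little net shift. A lower mean in the tetraploid samples was seen for 23 genes (57.5%), against 60.9% of all genes, and the median log2 difference, tetraploid minus diploid, was -0.079 against -0.048 over all genes. Of the 33 genes whose mean signal was above the median of probe set means, 16 were lower, against 47.2% of all such genes. The median difference of these 33 was 0.003, against 0.03. Over the 40 genes the differences ran from -0.99 to 0.36, and 0 of the 40 exceeded 1 in size. None of the 40 genes passed the adjusted threshold of 0.05 (limma, Benjamini-Hochberg, smallest adjusted p = 0.876), and 0% of all genes did.

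At an unadjusted p under 0.05 there were 6 genes, all with the lower mean in the tetraploid samples (15%, against 2.14% of all genes). No gene was higher at that p, against 2.95% of all genes. The 3 tetraploid values lay wholly below the 3 diploid values for 7 genes (17.5%, against 7.20% of all genes) and wholly above them for 0 genes (against 4.82%). The 7 genes were Xrcc1, Ercc1, Fancd2, Fanci, Exo1, Rad54l and Rad54b, of which Rad54b was above the p of 0.05. Among the 33 genes with a mean signal above the median, 4 were lower at that p, against 396 of 11208 such genes. For 4 of the 33 the tetraploid values lay wholly below, against 595 of the 11208. None of the 33 was higher at that p (against 608 of the 11208) or wholly above (against 863). The 6 lower genes became 3 when tetraploid I, tetraploid II or diploid II was left out. The gap between the groups exceeded 0.1 only for Fancd2 (0.38), Xrcc1 (0.22), Ercc1 (0.21) and Fanci (0.13). These shares describe the list, which was put together with results of these arrays known, and no test over the list was made.

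**Figure D2:**
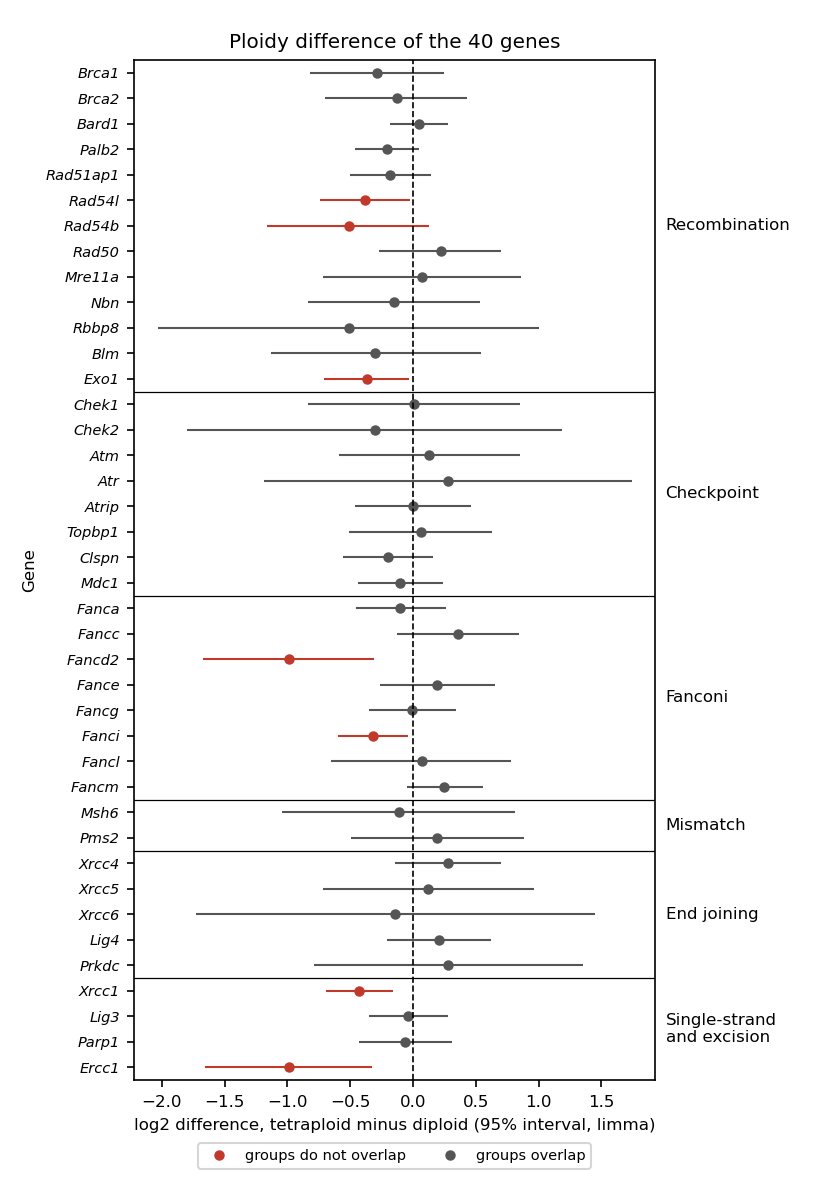
Log2 difference, tetraploid minus diploid, of the 40 genes on the x axis with its 95% interval from limma, by pathway, with the genes whose groups did not overlap in red. The red points all lie left of 0, from -0.99 for Fancd2 and Ercc1 to -0.32 for Fanci, and the intervals of 34 genes include 0.

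The size of the shift depended on single cultures, both those that stood apart and others. Without diploid III, 32 of the 40 genes had a lower tetraploid mean (80%, against 53.6% of all genes), the median was -0.23, and 5 genes had an unadjusted p under 0.05 (against 4.37% of all genes). Without tetraploid II, 20 genes were lower (against 60.6%), the median was 0.009, and 3 genes were lower at that p (against 1.10%). The genes higher at that p were then Fancc and Fancm, 2 of the 40, against 1.86% of all genes. Without diploid I, 20 genes were lower (against 59.3%), the median was 0.012, and 5 genes were lower at that p (against 1.82%). Without diploid II, 20 genes were lower (against 60.8%), the median was 0.017, and 3 genes were lower at that p (against 2.05%). Without both tetraploid II and diploid III, 30 genes were lower (against 53.3%), the median was -0.158, and 3 genes were lower at that p (against 3.23%). The shares over all genes include many dim genes. Of the 33 genes with a mean signal above the median, 25 were lower without diploid III, against 55.7% of all such genes. Without tetraploid II 13 of the 33 were lower (against 46.1%), and without diploid I 13 (against 42.3%). The adjusted threshold was passed by 0 of the 40 genes in each of these fits (limma). The differences of 18 of the 40 genes turned sign when 1 culture or another was left out.

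The genes also varied between the single cultures. The median range of a gene over the 6 arrays was 0.76, and for 15 genes the range exceeded 1. Diploid III had the lowest value for 20 of the 40 genes and tetraploid II for 16, while diploid I and diploid II had the lowest value for none. Over all genes these shares were 22.1%, 21.5%, 13.6% and 14%. Among genes whose mean signal was above the median, diploid III was lowest for 39.1% and tetraploid II for 19.0%. Diploid I and diploid II had the highest value for 14 and 12 of the 40 genes, against 16.6% and 9.4% of all genes. Among genes with a mean signal above the median these shares were 24.1% and 13.2%. The median deviation from a gene's own mean was 0.13 in diploid I, 0.16 in diploid II and -0.31 in diploid III, and in the tetraploid cultures, in the same order, -0.03, -0.22 and 0.08, so the diploid group included both the highest and the lowest arrays.

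**Figure D3:**
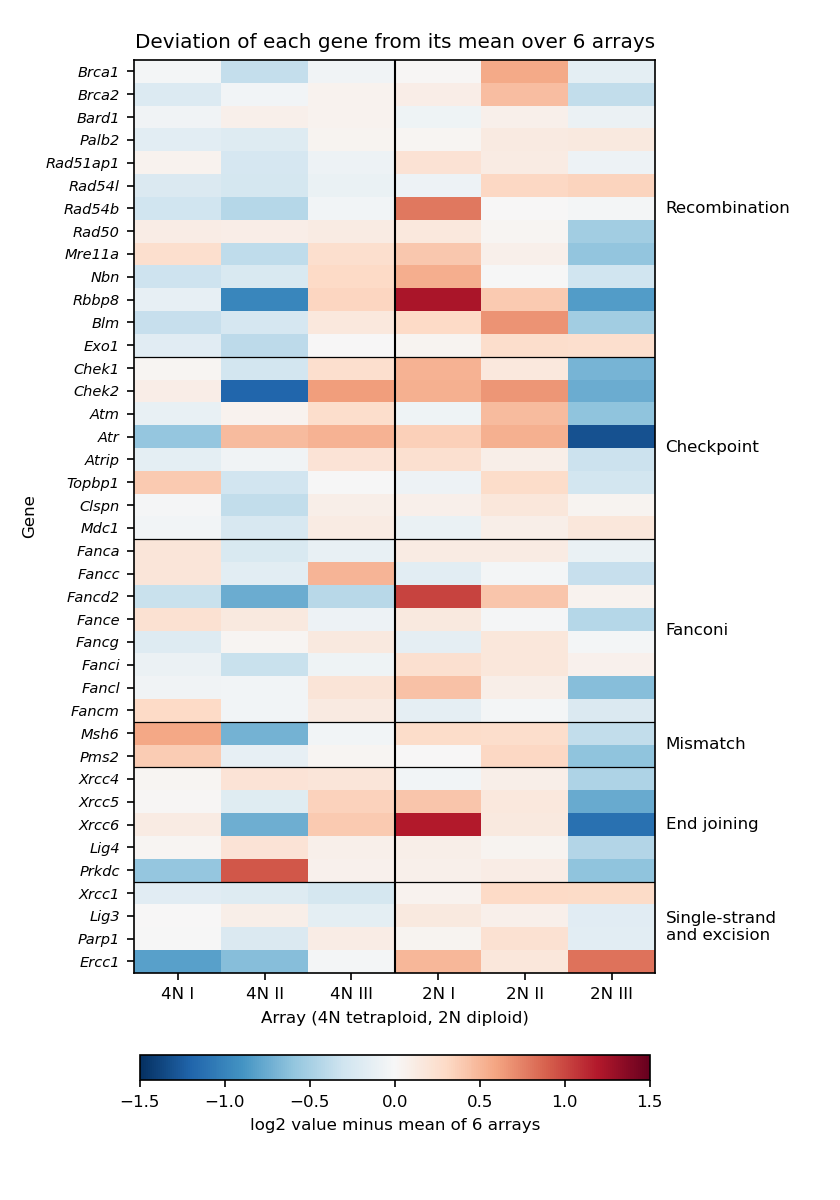
Log2 value of each of the 40 genes minus its mean over the 6 arrays, with 1 row per gene grouped by pathway and 1 column per array (4N is tetraploid, 2N diploid). Blue cells gather in the columns of tetraploid II and diploid III, which held the lowest value for 16 and 20 genes, and Fancd2 and Ercc1 are bluer in the 3 tetraploid columns than in the diploid ones.

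Among recombination genes, Exo1 and Rad54l had the smallest p-values, at low signal. Of the 13 genes 10 had a lower tetraploid mean (against 60.9% of all genes), and the median difference was -0.207. An unadjusted p under 0.05 was reached by 2 of the 13 (against 2.14% of all genes), and by 0 without tetraploid II. Exo1, the exonuclease that lengthens the resected end, was at 4.33, 4.11 and 4.50 in the tetraploid and at 4.54, 4.76 and 4.75 in the diploid samples (I, II and III in that order throughout). Its difference was -0.37 (SE 0.14, unadjusted p = 0.0363, limma), and the groups were separated by 0.046 only. Rad54l, a motor protein that helps the recombinase invade the sister strand, was at 4.46, 4.41 and 4.58 in the tetraploid and at 4.60, 4.99 and 5.01 in the diploid samples. It differed by -0.38 (SE 0.14, unadjusted p = 0.0407, limma), with diploid I level with tetraploid III. Its relative Rad54b was at 4.17, 4.05 and 4.43 in the tetraploid samples and at 5.27, 4.48 and 4.44 in the diploid samples. The difference of -0.51 (SE 0.26) came mostly from diploid I, and without that array it was -0.24.

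The genes that start resection followed the single cultures. Rbbp8 encodes CtIP, which opens the break with the Mre11 complex, and had the widest spread of the 13. It was at 6.57, 5.71 and 7.01 in the tetraploid samples and at 7.91, 7.08 and 5.85 in the diploid samples, a difference of -0.51 (SE 0.61). The groups overlapped, with tetraploid II and diploid III both low. The 3 subunit genes of the Mre11 complex, Mre11a, Rad50 and Nbn, differed by 0.07 (SE 0.32), 0.22 (SE 0.19) and -0.15 (SE 0.27). Rad50 was at 7.83 to 7.85 in all tetraploid samples, and at 7.89, 7.76 and 7.21 in the diploid samples.

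The genes of mediators and their partners had differences whose 95% intervals all included 0. Palb2, which bridges Brca1 and Brca2, was at 3.74, 3.70 and 3.93 in the tetraploid and at 3.92, 4.03 and 4.04 in the diploid samples, a difference of -0.21 (SE 0.10, unadjusted p = 0.0932, limma) with tetraploid III inside the diploid range. Brca1, the ubiquitin ligase subunit that promotes resection, differed by -0.29 (SE 0.22), and Brca2 by -0.13 (SE 0.23). Bard1 differed by 0.05 (SE 0.09) at its brightest probe set, and by -0.22 and -0.39 (SE 0.12 and 0.21) at the other two, so its direction depends on the probe set. Rad51ap1, which stimulates the recombinase, differed by -0.18 (SE 0.13), and Blm, the helicase that dissolves crossed strands, by -0.30 (SE 0.33). Without diploid III the difference of Blm was -0.63 (unadjusted p = 0.0350, limma).

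In the Fanconi pathway the most negative differences were those of both subunits of the complex that is ubiquitinated at a crosslink, Fancd2 and Fanci. Fancd2 was at 4.71, 4.30 and 4.63 in the tetraploid samples and at 6.06, 5.46 and 5.09 in the diploid samples. The groups did not overlap, and diploid III was the diploid sample nearest to the tetraploid ones. The means were 4.55 ± 0.22 and 5.54 ± 0.49 (SD, n = 3 each), a difference of -0.99 (SE 0.27, unadjusted p = 0.0127, adjusted p = 0.876, limma), or 1.98-fold more in the diploid samples. Its unadjusted p lay between 0.00533 and 0.0421 when any single culture was left out (limma). Fanci was at 4.24, 4.00 and 4.27 in the tetraploid and at 4.57, 4.50 and 4.40 in the diploid samples, a difference of -0.32 (SE 0.11, unadjusted p = 0.0314, limma). Its values lay below the array median on 5 of 6 arrays, and the largest unadjusted p with 1 culture left out was 0.0972 (limma).

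The other Fanconi genes had differences of both signs. Of the 8 genes 4 had a lower tetraploid mean (against 60.9% of all genes) and 4 a higher one, with a median difference of 0.03. Fancc, of the core ligase complex, was at 5.64, 5.31 and 5.97 in the tetraploid samples and at 5.31, 5.43 and 5.12 in the diploid samples, a difference of 0.36 (SE 0.19), and tetraploid II lay within the diploid range. Fancm, the DNA translocase that anchors the core complex, was at 5.31, 4.97 and 5.15 in the tetraploid and at 4.88, 4.99 and 4.80 in the diploid samples, a difference of 0.25 (SE 0.12) with an overlap of tetraploid II and diploid II. The core complex genes Fanca, Fance and Fancg differed by -0.10 (SE 0.14), 0.19 (SE 0.18) and -0.0061 (SE 0.14). Fancl, the ligase subunit that marks Fancd2 and Fanci, differed by 0.07 (SE 0.29).

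The genes of single-strand break and excision repair included Xrcc1, with the smallest p-value of the 40, and Ercc1. Xrcc1, the scaffold that gathers the enzymes at a nicked strand, was at 6.33, 6.30 and 6.23 in the tetraploid samples and at 6.55, 6.80 and 6.78 in the diploid samples. The tetraploid samples lay within 0.1 of each other and below every diploid sample. The means were 6.28 ± 0.05 and 6.71 ± 0.14 (SD, n = 3 each), a difference of -0.43 (SE 0.11, unadjusted p = 0.0080, adjusted p = 0.876, limma), or 1.34-fold. The unadjusted p stayed between 0.00558 and 0.0329 with any culture left out (limma). The differences of its partners lay nearer 0. Lig3, the ligase it stabilises, differed by -0.04 (SE 0.13). Parp1, which marks strand breaks with poly(ADP-ribose), was at 7.77, 7.56 and 7.89 in the tetraploid and at 7.81, 8.0 and 7.61 in the diploid samples, a difference of -0.06 (SE 0.15).

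Ercc1, the partner of the nuclease Xpf in excision and crosslink repair, was at 7.51, 7.69 and 8.29 in the tetraploid samples and at 8.82, 8.50 and 9.14 in the diploid samples. The groups did not overlap, with the artificial clone, tetraploid III, nearest to the diploid samples. The means were 7.83 ± 0.41 and 8.82 ± 0.32 (SD, n = 3 each), a difference of -0.99 (SE 0.27, unadjusted p = 0.0114, adjusted p = 0.876, limma), or 1.99-fold. Diploid III, the lowest sample for 20 of the 40 genes, was the highest for Ercc1. The difference without diploid III was -0.83, and the unadjusted p stayed between 0.00372 and 0.0379 with any single culture left out (limma). Without both tetraploid II and diploid III the difference was -0.76, at an unadjusted p of 0.0922 (limma). Ercc4, which encodes Xpf, differed by 0.24 (SE 0.13) in the other direction. The folds in the authors' deposited table are diploid over tetraploid, and there Fancd2 had a fold of 1.98 and Ercc1 a fold of 1.99.

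**Figure D4:**
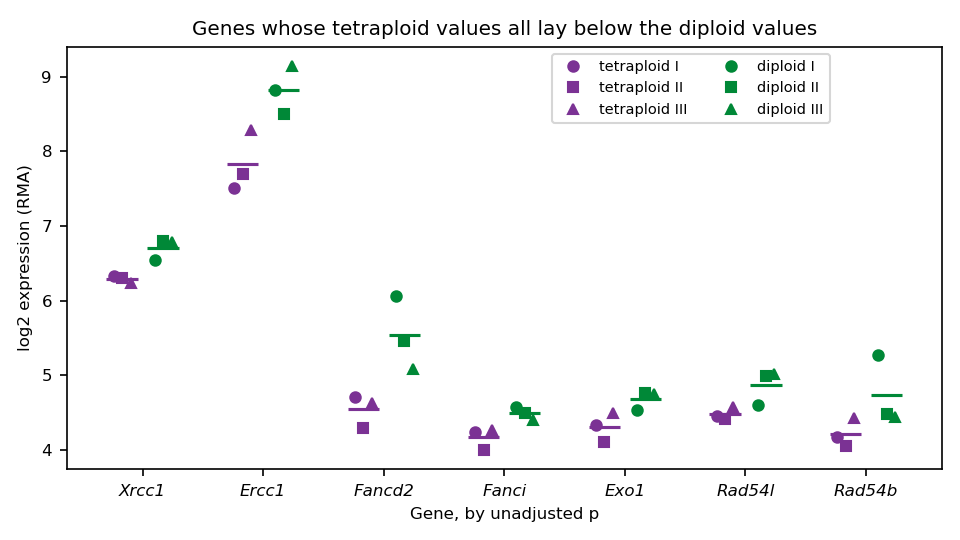
Log2 expression of the 7 genes whose tetraploid values all lay below the diploid values, with 1 symbol per culture and bars at group means (n = 3). The gaps between the groups were 0.38 for Fancd2, 0.22 for Xrcc1 and 0.21 for Ercc1. The groups nearly touch for Rad54l and Rad54b, where the gaps were 0.015 and 0.007.

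The checkpoint genes had differences of both signs with all arrays. Of the 8 genes 3 had a lower tetraploid mean (against 60.9% of all genes) and 5 a higher one, and the median was 0.004. At an unadjusted p under 0.05 there were 0 of the 8, against 2.14% of all genes lower and 2.95% higher. Without diploid III all 8 had a lower tetraploid mean (against 53.6% of all genes), with a median of -0.193. Chek2, the kinase downstream of Atm, was at 6.29, 5.0 and 6.81 in the tetraploid samples and at 6.72, 6.85 and 5.44 in the diploid samples, a difference of -0.30 (SE 0.60). Tetraploid II and diploid III were the low samples, and without tetraploid II the difference turned to 0.21. Atr, the kinase of stalled forks, was at 6.0, 7.06 and 7.10 in the tetraploid samples and at 6.94, 7.12 and 5.27 in the diploid samples. Its difference was 0.28 (SE 0.59) with all arrays and -0.31 without diploid III, the lowest sample. The other probe set of Atr, dim at a mean of 3.99, differed by -0.16 (SE 0.10). Clspn was at 4.34, 3.99 and 4.45 in the tetraploid and at 4.44, 4.53 and 4.40 in the diploid samples, a difference of -0.20 (SE 0.14) that came mostly from tetraploid II.

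The differences of the remaining checkpoint genes lay nearer 0. Mdc1 was at 6.11, 5.92 and 6.28 in the tetraploid and at 6.05, 6.24 and 6.33 in the diploid samples, a difference of -0.10 (SE 0.14). Atm, the kinase of double-strand breaks, differed by 0.13 (SE 0.29), and Chek1, the kinase downstream of Atr, by 0.005 (SE 0.34). Atrip, the obligate partner of Atr, differed by 0.0028 (SE 0.18), and Topbp1, which activates Atr, by 0.06 (SE 0.23). The 95% intervals of Atrip (-0.46 to 0.46) and Mdc1 (-0.44 to 0.24) were narrower than those of Chek2 (-1.80 to 1.19) and Atr (-1.19 to 1.74), which include differences over 1 either way.

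The end joining genes were lowest in diploid III. That culture had the lowest value for all 5 genes (against 22.1% of all genes, and 39.1% of those with a mean signal above the median). A higher tetraploid mean was seen for 4 of the 5 and a lower one for 1 (against 60.9% of all genes), with a median of 0.207. At an unadjusted p under 0.05 there were 0 of the 5, against 2.14% of all genes lower and 2.95% higher. Xrcc4, the scaffold of the ligation step, was at 7.47, 7.64 and 7.62 in the tetraploid samples and at 7.40, 7.53 and 6.97 in the diploid samples. Its difference was 0.28 (SE 0.17), and 0.11 without diploid III. Lig4, the ligase of that step, was at 6.24, 6.41 and 6.28 in the tetraploid and at 6.29, 6.25 and 5.77 in the diploid samples, a difference of 0.21 (SE 0.17), and 0.04 without diploid III. Without that array the median of the 5 genes was 0.042.

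The genes of the DNA-dependent protein kinase differed in which culture was high. Prkdc, its catalytic subunit, was at 5.34, 6.85 and 5.98 in the tetraploid samples and at 6.0, 6.03 and 5.31 in the diploid samples, a difference of 0.28 (SE 0.43). Tetraploid II was the high sample, and without it the difference was -0.11. Xrcc6, which encodes the Ku70 subunit, had the widest range of the 40 genes, 2.30, with diploid I at 8.88, diploid III at 6.58 and the others between, and a difference of -0.14 (SE 0.64). Xrcc5, which encodes its partner Ku80, differed by 0.12 (SE 0.34).

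The mismatch repair genes were highest in tetraploid I. Msh6, a subunit of the mismatch sensor, was at 7.81, 6.52 and 7.19 in the tetraploid samples and at 7.50, 7.49 and 6.86 in the diploid samples, a difference of -0.11 (SE 0.37). Tetraploid II was the lowest sample, and without it the difference was 0.21. Pms2, a subunit of the endonuclease that acts after the sensor, was at 6.05, 5.54 and 5.69 in the tetraploid and at 5.67, 5.97 and 5.06 in the diploid samples, a difference of 0.19 (SE 0.27), and -0.06 without diploid III. Neither gene separated the groups.

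Primary cultures and lines or clones were then compared, since origin was partly mixed with ploidy. Among primary cultures, where 1 tetraploid faced 2 diploid samples, the median difference of the 40 genes was -0.03 (against -0.06 over all genes). Among lines and clones, where 2 tetraploid samples faced diploid I, it was -0.20 (against -0.03 over all genes). Of the 40 genes 15 had a lower tetraploid mean in both origins, 4 a higher one in both, 15 a higher one in primary cultures and a lower one in lines and clones, and 6 the reverse. For Fancd2 the difference was -0.56 among primary cultures and -1.59 among the lines and clones, and for Ercc1 it was -1.32 and -0.83. The difference between origins was at an unadjusted p under 0.05 for 0 of the 40 genes (against 2.86% of all genes) and passed the adjusted threshold for 0 (limma). The lone tetraploid primary culture and the lone diploid clone were assumed to vary like the others in that fit, so differences between origins of the size of the replicate spread were not detectable.

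The other genes of repair were counted from a list of 50 that are not among the 40. A lower tetraploid mean was seen for 32 (64.0%), near the 60.9% of all genes. Among all genes whose mean signal was above the median, 47.2% were lower. The median difference of the 50 was -0.072. An unadjusted p under 0.05 was reached by 3 that were lower (against 2.14% of all genes) and 0 that were higher. The 3 were Msh3, of mismatch repair, at -0.35 (SE 0.13), H2afx, the histone variant that is phosphorylated beside breaks, at -0.72 (SE 0.28), and Cdc25a, the phosphatase that Chek1 targets, at -0.35 (SE 0.14). The 4th smallest p was that of Gen1, a nuclease that cuts crossed strands, at -0.60 (SE 0.26). The tetraploid values lay wholly below the diploid values for 5 of the 50 (against 7.20% of all genes). They lay wholly above them for 3 (against 4.82%). Those 3 were Rmi1 at 1.18 (SE 0.67), Wrn at 0.70 (SE 0.33) and Xrcc3 at 0.24 (SE 0.10). Rmi1 had the 1 difference of the 50 that exceeded 1 in size. None passed the adjusted threshold (limma, smallest adjusted p = 0.876). Without diploid III, 36 of the 50 were lower (against 53.6% of all genes), 9 at an unadjusted p under 0.05 (against 4.37%). Without tetraploid II, 27 were lower (against 60.6%) and 0 at that p, and without diploid I, 25 were lower (against 59.3%) and 0 at that p.

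Genes of dividing cells mostly had lower tetraploid means, with more negative medians among lines and clones than among primary cultures. Origin cannot be told apart from single cultures there, since tetraploid I was the lone tetraploid primary culture and diploid I the lone diploid clone. Of 20 mitosis genes 19 had a lower tetraploid mean (against 60.9% of all genes), and 5 of them had an unadjusted p under 0.05 (against 2.14%). Their median difference was -0.689, about 0 among primary cultures and -1.36 among lines and clones. Diploid I, the clone, was the highest array for 16 of the 20 (against 16.6% of all genes). Of 20 replication genes 17 were lower, 5 at that p, and their median was -0.263, with -0.16 among primary cultures and -0.31 among lines and clones. The mitosis list averaged 6.57, 5.77 and 6.18 over the tetraploid cultures and 7.40, 6.85 and 6.42 over the diploid ones. The mean of the 40 repair genes was 6.01, 5.85 and 6.16 in the tetraploid and 6.29, 6.27 and 5.76 in the diploid samples. Diploid I and diploid II were the highest for both lists, while diploid III was the lowest for the repair genes and above tetraploid II and III for the mitosis genes. The mitosis genes of smallest p were the mitotic kinase gene Plk1 at -1.51 (SE 0.27), the proliferation marker Mki67 at -1.06 (SE 0.21), the kinetochore gene Ndc80 at -0.68 (SE 0.15) and the cyclin gene Ccna2 at -0.88 (SE 0.22). In the replication list the S phase genes Pole, Pold1 and Orc1, for subunits of polymerases and of the origin complex, differed by -0.82 (SE 0.17), -0.58 (SE 0.19) and -0.22 (SE 0.08), and Rrm1, a ribonucleotide reductase subunit gene, by -0.64 (SE 0.25). The part of the share of dividing cells in the differences of Fancd2, Fanci, Exo1 and Rad54l was not tested.

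Among 12 E2F, retinoblastoma and cell cycle regulator genes 10 had a lower tetraploid mean (against 60.9% of all genes), with a median of -0.196. Without tetraploid II there were 7 of the 12 (against 60.6%). Mybl2, a factor of G2 and M phase promoters, differed by -0.79 (SE 0.31) and Rbl2, the pocket protein of resting cells, by 0.87 (SE 0.34). Both were at an unadjusted p under 0.05, in opposite directions (1 of the 12 each way, against 2.14% of all genes lower and 2.95% higher). E2f7, an E2F repressor, and Foxm1, a factor of G2 genes, differed by -0.47 (SE 0.20) and -0.84 (SE 0.39).

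The p53 targets, on which the checkpoint acts, split the tetraploid samples. Of 20 targets 9 had a lower tetraploid mean (against 60.9% of all genes) and 11 a higher one, with a median of 0.053. The highest value lay in tetraploid I for 14 targets, and the lowest in tetraploid II for 14. Cdkn1a, the cell cycle inhibitor p21, was at 10.06, 6.25 and 9.91 in the tetraploid samples and at 9.83, 9.41 and 9.41 in the diploid samples. Tetraploid II thus lay below every other culture, and the difference of -0.81 (SE 1.07) did not separate the groups. Plk2, a kinase gene that p53 induces, was the 1 target of the 20 at an unadjusted p under 0.05, with a difference of -1.44 (SE 0.46). Over all genes 2.14% were lower and 2.95% higher at that p. Without tetraploid II 3 of the 20 were lower (against 60.6%), and the median was 0.62.

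**Figure D5:**
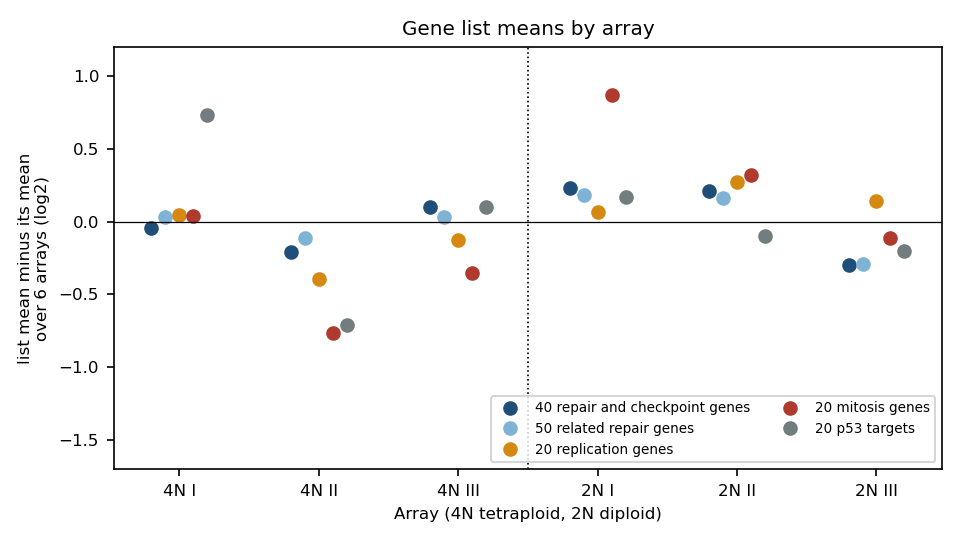
Mean log2 value of 5 gene lists on each array minus the mean of that list over the 6 arrays (4N is tetraploid, 2N diploid). The repair and checkpoint genes span from 5.76 in diploid III to 6.29 in diploid I before centring, a narrower span than the mitosis genes (5.77 to 7.40), and p53 targets are lowest in tetraploid II.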

How the data were processed

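RNA of 6 cultures was measured on Affymetrix arrays, and ploidy was assigned by DNA content and karyotype, per the labels' protocols. The deposited value table holds log2 values per probe set, which the authors made with RMA. The software Partek is also named, without a version for either, per the submitters' processing notes. The authors' deposited comparison table gives, per the file headers, a p-value and a signed fold (a score that is negative where tetraploid is higher). It also holds 6 columns of values whose names match no sample label, not used here. The genome build is not given in the sources used here.

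A symbol was given for 25917 of 35399 probe sets, and 2383 of 22349 symbols were updated as synonyms in RefSeq (GRCm38.p6). Tetraploid minus diploid was fitted with limma 3.58.1 in R 4.3.3 (lmFit, eBayes, two-sided) on all 6 arrays without covariates, adjusted by Benjamini-Hochberg over the 25917 named probe sets. Background shares are over 22311 genes, 1 probe set each. The interval level is 95%. With 3 against 3 samples an exact permutation test cannot give a two-sided p under 0.1, so none was used. The step was tested on simulated data. The members, gene lists, tests and alternatives were chosen with earlier results of these data known. Values by sample are given, within each pathway, for the 3 genes of smallest unadjusted p, the 2 of largest difference, and genes whose groups did not overlap. From each other list up to 4 genes of smallest p are named. Rad50, Xrcc6, Ercc4, Cdkn1a, Rmi1, Wrn and Xrcc3 were given by value after their values were seen. Figures were drawn with matplotlib 3.10.9. Alternatives covered normalisation, dim probe sets, variance models, weights, origin, the repeat number, left-out cultures and the choice of probe sets. The number of arrays limits the precision.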

Additional observations from a re-analysis of the deposited data

How the results depend on the processing

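No alternative gave an adjusted p under 0.05 for any of the 40 genes (limma). Over all probe sets, the count past that threshold was 0 with all arrays and lay between 0 and 1 when 1 culture was left out. The genes lower at an unadjusted p under 0.05 numbered 6, and 2 after the filter on dim probe sets, which keeps 33 of the 40 genes. Of these 33, 4 were lower at that p in the main fit, so the drop was not only a loss of dim genes. The lower genes numbered 3 with the repeat number as a block and 3 without both tetraploid II and diploid III. With 1 culture left out they numbered between 3 and 5 (3 without tetraploid I, tetraploid II or diploid II). The genes higher at that p numbered 0, and between 0 and 2 with 1 culture left out. The number of genes with a lower tetraploid mean was between 20 and 32, and their median difference between -0.23 and 0.017, with 1 culture left out. The difference between origins was called for 0 probe sets under each alternative run. Xrcc1, Ercc1, Fancd2, Fanci, Exo1, Rad54l and Rad54b kept their direction under every alternative run.

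The differences of 21 of the 40 genes turned sign under at least 1 alternative, and 19 did not. With array weights these were Mre11a (-0.13), Chek1 (-0.26), Atm (-0.11), Atr (-0.27), Atrip (-0.13), Topbp1 (-0.021), Fancl (-0.18), Pms2 (-0.007) and Xrcc5 (-0.16). Without both tetraploid II and diploid III they were Bard1 (-0.007), Chek1 (-0.20), Atm (-0.13), Atr (-0.48), Atrip (-0.13), Mdc1 (0.051), Fancl (-0.20), Msh6 (0.003), Xrcc5 (-0.11), Lig4 (-0.008) and Prkdc (-0.35). With origin as a covariate they were Chek1 (-0.12), Atr (-0.029), Atrip (-0.093), Fancl (-0.076) and Xrcc5 (-0.010). Quantile normalisation turned Bard1 (-0.006), Atrip (-0.062) and Topbp1 (-0.009), centring on the median Chek1 (-0.002) and Atrip (-0.004), and averaging the probe sets of each gene Bard1 (-0.19) and Fancl (-0.022).

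With 1 culture left out, 18 genes turned: 9 without diploid III, 6 without tetraploid III, 5 without tetraploid II, 4 without tetraploid I, 3 without diploid I and 3 without diploid II. Their ranges were -0.14 to 0.40 for Atm, -0.31 to 0.64 for Atr, -0.16 to 0.12 for Atrip, -0.35 to 0.064 for Brca2, -0.34 to 0.27 for Chek1, -0.76 to 0.21 for Chek2, -0.083 to 0.088 for Fancg, -0.24 to 0.30 for Fancl and -0.13 to 0.029 for Lig3. They were -0.21 to 0.29 for Mre11a, -0.43 to 0.21 for Msh6, -0.34 to 0.078 for Nbn, -0.16 to 0.037 for Parp1, -0.062 to 0.40 for Pms2, -0.11 to 0.64 for Prkdc, -0.12 to 0.22 for Topbp1, -0.23 to 0.35 for Xrcc5 and -0.73 to 0.42 for Xrcc6. The cause was not tested beyond the samples left out.

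No pairing by the shared repeat numbers was visible. The deviations of same-numbered samples from their group means correlated at -0.117, -0.149 and -0.337. With 3 samples per group, such values cannot settle whether the samples were paired. The block fit kept 23 genes lower and the median at -0.079.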
